A study of Mus musculus with 6 samples.

Results

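The expression of 10 transcription factors that govern blood stem and progenitor cells was followed in marrow colonies depleted of Rad21, part of the cohesin ring that folds chromosomes: Meis1, Pbx3, Hlf, Mecom, Gata2, Runx1, Tal1, Lmo2, Erg and Myb. The genes were listed by name, and every probe set annotated to exactly one of them was taken. All 10 had a probe set, 19 in all, out of 20380 usable probe sets for 12393 genes.

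RNA was measured on 6 Affymetrix arrays from C57/BL6 mouse marrow, taken at 6 to 8 weeks of age, depleted of lineage-positive cells and infected with a lentivirus for 24 h. The virus carried no shRNA (empty vector), Rad21 shRNA #1 (shRNA1) or Rad21 shRNA #2 (shRNA2), with 2 arrays in each group. All groups went through puromycin selection (1 µg/mL), sorting of live cells, plating at 10000 cells/mL in methylcellulose with cytokines and RNA collection after 7 days. No strain difference or further genetic change is named, the shRNA target sites are not given, and the labels do not say whether replicates were separate animals, pools or cultures, so the p-values below rest on the scatter among single arrays, which could be purely technical.

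These factors are sequence-specific DNA-binding proteins or their bridging partners. GATA2, TAL1, LMO2, RUNX1 and ERG bind together at many enhancers of stem and progenitor cells, where LMO2 links TAL1 to GATA factors without binding DNA itself. MEIS1 and PBX3 are homeodomain proteins of the TALE class that bind DNA beside HOX proteins such as HOXA9. MYB sustains the proliferation of immature cells and declines as they mature, while HLF and MECOM are concentrated in the most primitive stem cells.

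Values are levels on the log2 scale of the RMA intensity of a probe set, where 1 unit is a doubling. A level describes 1 probe set across arrays and is not set against that of another gene. A gene was tested on its brightest probe set. Differences are shRNA minus empty vector, ± the standard error of the limma fit over all genes, and rest on 4 arrays against 2 when the shRNAs are combined and on 2 against 2 otherwise. Adjusted p-values come from the Benjamini-Hochberg procedure across 12393 genes, with 0.05 as the threshold. All comparisons with empty vector share its 2 arrays.

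The knockdown was visible in Rad21 itself, whose level, as a share of the geometric mean of the controls, was 125% and 79.8% on the control arrays, 43.8% and 31.2% with shRNA1 and 40.2% and 30.6% with shRNA2. Its difference was -1.47 ± 0.26 (limma adjusted p = 0.0558), with -1.15 without empty-vector replicate 1 and -1.80 without replicate 2. Its other probe sets differed by -1.78 and -0.43, and on the last of these shRNA and control arrays overlapped. Empty-vector replicate 1 stood apart in array quality: its Gapdh control probe set at the 3′ end lay 2.42 log2 units above that at the 5′ end, against -0.078 to 0.017 on the other arrays. Where its omission moved the combined difference of a factor, or of a partner, regulator, target or relative named below, by over 1.5 times or ended or made a call, that value is given. Named cell type markers outside those lists were not refitted. Without detection calls in the table, the presence or absence of other cell types in the colonies could not be read from their markers.

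None of the 10 factors passed the threshold for the mean of both shRNAs, for either shRNA alone or between the shRNAs, where 2.13%, 0.234%, 2.83% and 0% of all genes passed by limma. Over all 19 probe sets of the factors the count for both shRNAs was also 0, beside 0.927% of all probe sets. At an unadjusted p under 0.05 there were 2 factors for both shRNAs together (Gata2 and Pbx3), when 16.7% of all genes did so. The same count was 2 for shRNA1 (Gata2 and Tal1; 9.3% of all genes), 4 for shRNA2 (Gata2, Pbx3, Lmo2 and Myb; 17.8%) and 1 between the shRNAs (Meis1; 4.89%). The signs were even, with 5 positive and 5 negative differences for both shRNAs together, and 46.4% of all genes positive. In absolute size the median difference was 0.38 over the 10 factors and 0.19 over all genes. Replicate arrays of a group also lay further apart over the factors. Their median gaps were 0.36 (empty vector), 0.45 (shRNA1) and 0.25 (shRNA2), against 0.33, 0.17 and 0.15 over all genes.

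Ranked by array rather than by model, 4 factors had no overlap between the 4 shRNA arrays and the 2 empty-vector arrays. Pbx3 and Lmo2 lay above on all shRNA arrays, and Gata2 and Tal1 lay below. This is 4 of 10 factors beside 25.1% of all genes (11.5% above and 13.6% below). Of the 19 probe sets 8 stood apart, 4 above and 4 below, beside 24.5% of all probe sets (11.7% above and 12.9% below). Without empty-vector replicate 1 the count was 7 of 10, when 55.7% of all genes stood apart from the single control array left. The additional ones were then Runx1, Erg and Myb. Without replicate 2 it was 5 of 10, with Mecom added, beside 67.9% of all genes.

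**Figure D1:**
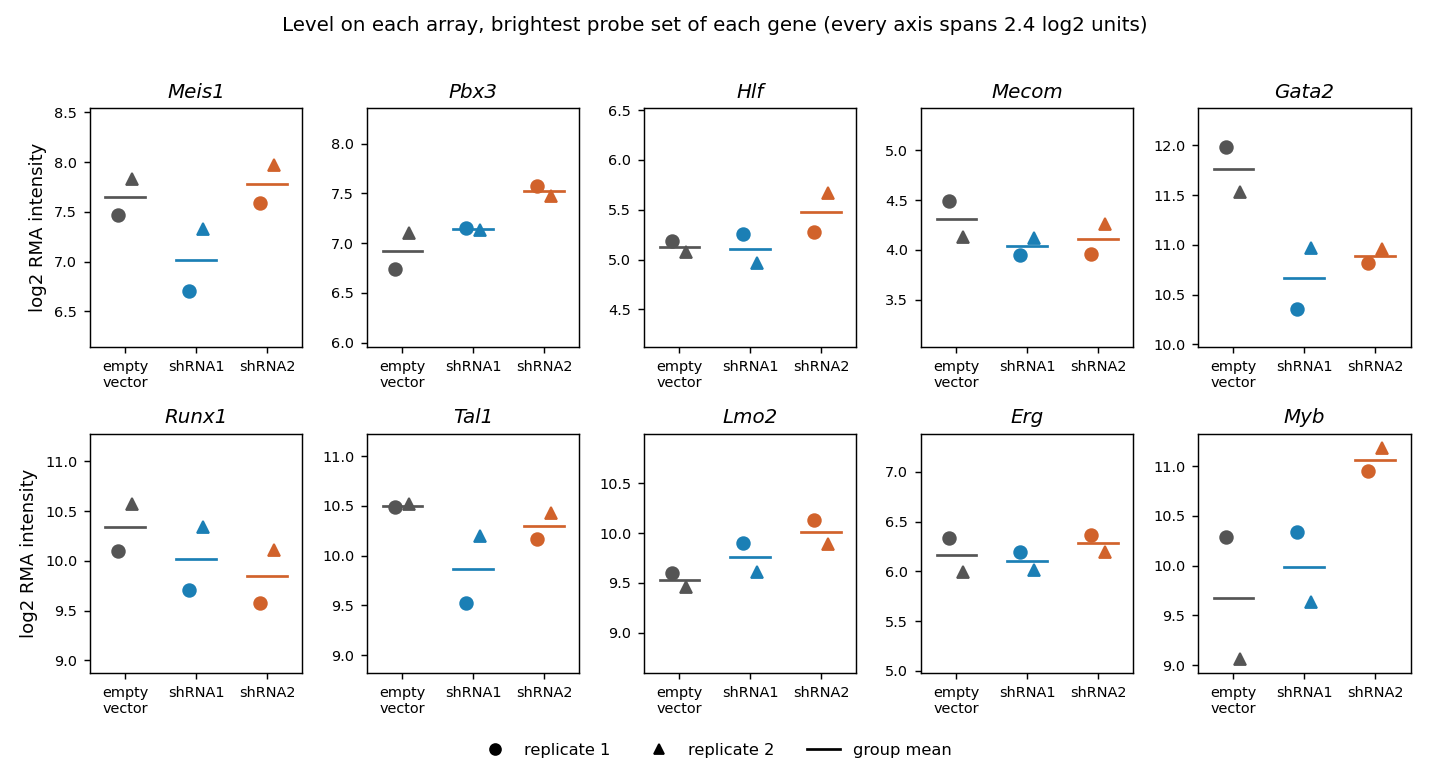
Log2 RMA intensity of the brightest probe set of each factor on each of the 6 arrays, by group, with circles for replicate 1, triangles for replicate 2 and a line for the group mean. All Gata2 shRNA arrays (10.36 to 10.97) lie below both empty-vector arrays (11.54 and 11.98), and Myb is highest on the shRNA2 arrays (10.95 and 11.18).

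The regions before the transcription starts of Gata2, Tal1, Meis1 and Myb are shown because Gata2 and Tal1 lay below both controls on every shRNA array and Myb, Gata2 and Meis1 had the widest ranges over the arrays. Each is the 250 bases upstream of a RefSeq start on GRCm38.p6, 5′ to 3′ on the gene's strand, and capitals mark a match to a motif searched. Such windows were on hand for 8 of the 10 factors, all but Pbx3 and Lmo2, and Gata2 and Tal1 each have a second start whose window is not shown.
Gata2, chr6:88193641-88193890, plus strand: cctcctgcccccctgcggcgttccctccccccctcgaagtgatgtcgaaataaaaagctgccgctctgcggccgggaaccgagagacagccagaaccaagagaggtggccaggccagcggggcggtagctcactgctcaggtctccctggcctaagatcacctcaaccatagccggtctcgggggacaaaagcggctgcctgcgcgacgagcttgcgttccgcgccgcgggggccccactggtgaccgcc
Tal1, chr4:115056176-115056425, plus strand: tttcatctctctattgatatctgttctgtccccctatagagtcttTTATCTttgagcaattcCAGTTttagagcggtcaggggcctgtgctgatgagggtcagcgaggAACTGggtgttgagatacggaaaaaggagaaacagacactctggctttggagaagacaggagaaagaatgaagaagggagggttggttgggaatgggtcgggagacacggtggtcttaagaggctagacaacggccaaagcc
Meis1, chr11:19018970-19019219, minus strand: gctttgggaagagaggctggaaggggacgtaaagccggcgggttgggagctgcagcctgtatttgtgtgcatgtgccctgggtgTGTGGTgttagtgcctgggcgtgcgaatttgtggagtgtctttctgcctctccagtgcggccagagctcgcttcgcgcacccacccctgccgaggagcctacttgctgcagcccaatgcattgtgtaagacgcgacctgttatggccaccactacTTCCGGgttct
Myb, chr10:21160985-21161234, minus strand: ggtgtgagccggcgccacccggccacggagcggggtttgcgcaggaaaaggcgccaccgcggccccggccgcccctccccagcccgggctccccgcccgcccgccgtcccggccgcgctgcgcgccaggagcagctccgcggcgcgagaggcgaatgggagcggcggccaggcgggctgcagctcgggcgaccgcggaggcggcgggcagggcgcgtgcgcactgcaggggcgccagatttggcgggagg

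In these windows 8 short motifs were searched on both strands. Those of GATA factors (AGATAA), ETS factors (CCGGAA), RUNX (TGTGGT), MYB (AACTG), MEIS (TGACAG), HOX with PBX (TGATTNAT), PAR bZIP factors (TTANGTAA) and an E-box (CAGCTG) occurred in 9.99%, 12%, 14.0%, 39.1%, 15.9%, 2.83%, 2.06% and 13.0% of 32817 promoter windows of that length. The Tal1 window held a GATA match 205 bases upstream of the start and MYB matches at 188 and 142 bases. The Meis1 window held a RUNX match at 166 bases and an ETS match at 11 bases. The Gata2 and Myb windows shown held none of these letters and were rich in G and C, at 67.2% and 81.2% against a median of 52.4% over the windows counted. Windows of a single chromosome were left out of that median and of the shares above. Among the windows not shown, those of Hlf (ETS), Mecom (MEIS), Runx1 (ETS and MYB) and Erg (GATA, MEIS and MYB) also held matches. A match is a description of the letters and not a binding site.

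Gata2, which maintains stem and progenitor cells and is also kept on in mast cells and megakaryocyte precursors, had the smallest p of the 10. Its brightest probe set (1450333_a_at) stood at 11.98 and 11.54 with empty vector, 10.36 and 10.97 with shRNA1, and 10.82 and 10.96 with shRNA2. Every shRNA array was thus lower than either control array, by an average of -0.98 ± 0.23 or 0.506-fold (95% interval -1.55 to -0.42), and the test was missed after adjustment (limma adjusted p = 0.109). The shRNAs gave -1.10 ± 0.26 (adjusted p = 0.242) and -0.87 ± 0.26 (adjusted p = 0.169). A less bright probe set of the gene (1428816_a_at) gave the same picture, at 10.79 and 10.36 with empty vector against 9.38 to 9.92 with the shRNAs, a difference of -0.87 ± 0.22.

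The Gata2 difference was -0.76 without empty-vector replicate 1. It was -1.21 without replicate 2 (-1.32 for shRNA1 and -1.10 for shRNA2), but the control was then solely the array whose Gapdh ends differ. Over the alternatives that kept all arrays the limma adjusted p ran from 0.101 to 0.376.

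Mean levels of mast cell and basophil markers and of megakaryocyte markers, cell types in which Gata2 is active, were lower alongside it. The mean of 9 mast cell and basophil markers was 11.46 and 12.01 with empty vector, 10.45 and 10.99 with shRNA1 and 10.64 and 10.76 with shRNA2, so that all shRNA arrays lay lower, and 3 of the 9 (Mcpt2, Fcer1a and Kit) fell in the mean of both shRNAs, when 1.4% of all genes fell. The list was uneven, since Cpa3 (-0.11), Hdc (-0.30) and Mcpt8 (-0.41) differed less and overlapped between the groups. For single shRNAs the count was 0 with shRNA1 and 2 with shRNA2. Over all genes 0.234% passed with shRNA1 alone and 2.83% with shRNA2 alone in either direction, the shares for the single-shRNA counts of each list here. The mean of 8 megakaryocyte markers was 10.43 and 10.28 with empty vector and 8.77 to 9.80 with the shRNAs. In the mean of both 1 of 8, Clec1b, fell (0 with shRNA1 and 1 with shRNA2 alone), while Ppbp (-0.53) and Gp9 (-0.46) overlapped between the groups. The mean of 6 stem cell markers, among them Hlf, Mecom and Meis1, overlapped, at 7.25 and 7.20 with empty vector and 6.89 to 7.23 with the shRNAs. None of these 6 passed in the mean of both, beside 2.13% of all genes (0 with shRNA1 and 1 with shRNA2 alone). Erythroid markers averaged 8.20 and 6.67 on the empty-vector arrays and 6.11 to 6.69 on the shRNA arrays, with replicate 1 of the empty vector far above the rest. None of 9 passed the threshold by limma and 4 had an unadjusted p under 0.05, beside 2.13% and 16.7% of all genes. The 11 neutrophil lineage markers averaged 9.82 and 8.76 with empty vector and 11.38 to 12.22 with the shRNAs. In the mean of both, 5 of them rose, beside 0.734% of all genes (2 with shRNA1 and 5 with shRNA2 alone). This list was uneven as well. S100a8 (0.50) and S100a9 (0.41) differed less, Mmp9 (-0.24) was lower, and Camp read 11.26 and 7.49 on the 2 control arrays. Lists were chosen with earlier results of these data known, so the shares beside these counts carry no test, and Kit is counted again among the target genes below. The part of these markers in the Gata2 difference was not tested, and in bulk RNA fewer cells of a type and less RNA per cell cannot be told apart.

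**Figure D2:**
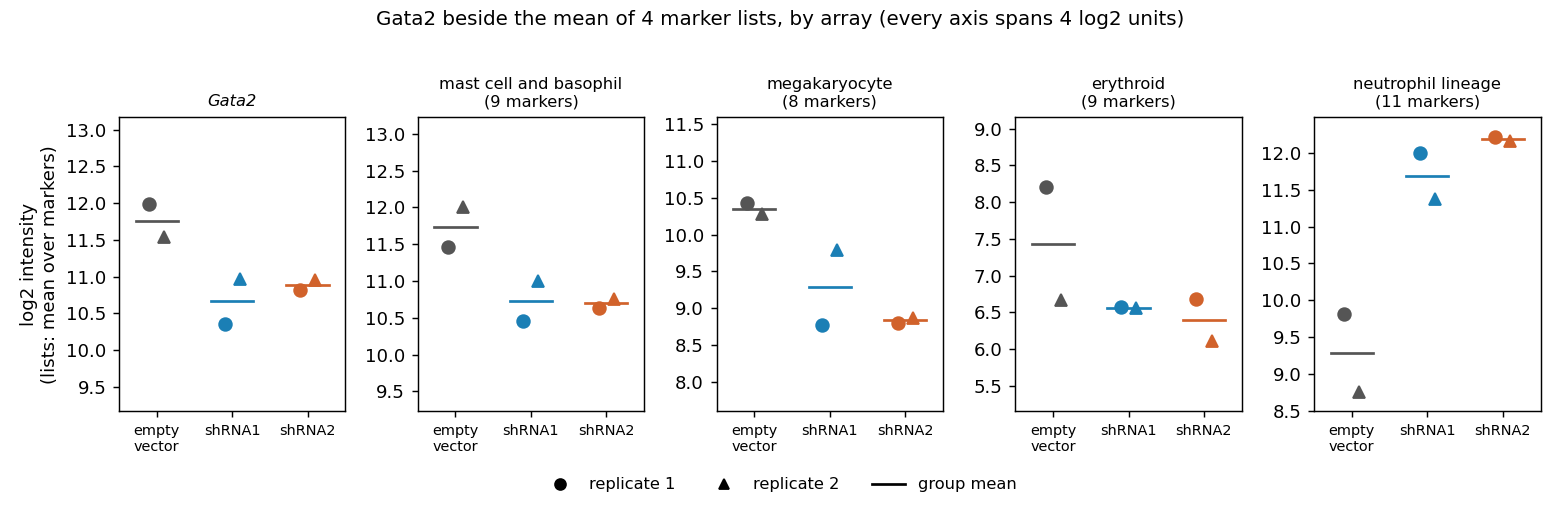
Log2 intensity of Gata2 (first panel) and the mean log2 intensity of 4 lists of cell type markers on each array, by group, with circles for replicate 1, triangles for replicate 2 and lines for group means. Gata2, the 9 mast cell and basophil markers and the 8 megakaryocyte markers are lower on all 4 shRNA arrays than on both empty-vector arrays, while the 11 neutrophil lineage markers are higher.

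Tal1, the basic helix-loop-helix partner of GATA factors in stem, erythroid and megakaryocytic cells, had nearly equal control levels of 10.49 and 10.52. It read 9.53 and 10.20 with shRNA1, and 10.17 and 10.43 with shRNA2, again with all shRNA arrays lower, although shRNA2 replicate 2 was within a few hundredths of a unit of the controls. The difference was -0.42 ± 0.22 for both shRNAs (limma adjusted p = 0.405, 95% interval -0.96 to 0.11). For shRNA1 it was -0.64 ± 0.25 (adjusted p = 0.514), and -0.31 once shRNA1 replicate 1 was left out.

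Lmo2, the bridging subunit of the same complex, lay the other way. Its levels were 9.60 and 9.46 with empty vector, 9.90 and 9.61 with shRNA1 and 10.13 and 9.89 with shRNA2. The lowest shRNA array barely exceeded the higher control, and the difference was 0.35 ± 0.16 (limma adjusted p = 0.336, 95% interval -0.032 to 0.74). Thus among 3 partners of one complex, Gata2 and Tal1 were lower and Lmo2 higher on the shRNA arrays, and none passed the threshold.

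Erg, an ETS factor required to maintain stem cells, showed the smallest difference of the 10 for both shRNAs together. It measured 6.34 and 5.99 with empty vector, 6.19 and 6.01 with shRNA1 and 6.37 and 6.19 with shRNA2, with complete overlap of the groups. The difference was 0.028 ± 0.16 (limma adjusted p = 0.956). Its 95% interval, not adjusted for the number of genes, was -0.37 to 0.42, so a change within that span in either direction is not excluded. The difference was 0.20 without empty-vector replicate 1. Its sign turned when empty-vector replicate 2 (-0.14), shRNA1 replicate 1 (-0.017) or shRNA2 replicate 1 (-0.016) was left out.

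Runx1, the DNA-binding subunit of core binding factor, had 5 probe sets, and they did not follow one pattern. The brightest (1422864_at) stood at 10.10 and 10.57 with empty vector, 9.70 and 10.34 with shRNA1 and 9.57 and 10.11 with shRNA2. In each group replicate 1 was the lower array, and the difference of -0.40 ± 0.27 missed the threshold (limma adjusted p = 0.523). Leaving out a control array moved it to -0.64 (replicate 1 dropped) or -0.16 (replicate 2 dropped), and dropping replicate 1 of shRNA1 or of shRNA2 moved it to -0.24 or -0.27, none of them past the threshold. One dimmer probe set, 1452531_at, separated the groups, at 8.48 and 8.00 with empty vector against 7.37 to 7.75 with the shRNAs, a difference of -0.74 ± 0.18 (adjusted p over all probe sets 0.157). Another, 1427650_a_at, also differed by -0.73 ± 0.34 but overlapped, since its control arrays were 1.02 units apart (9.79 and 8.77). The remaining probe sets differed by -0.37 (1422865_at) and -0.013 (1452530_a_at). The gap between the control arrays changed sign among probe sets, from -0.74 (1422865_at) to 1.02 (1427650_a_at), and the values do not settle how far Runx1 changed.

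**Figure D3:**
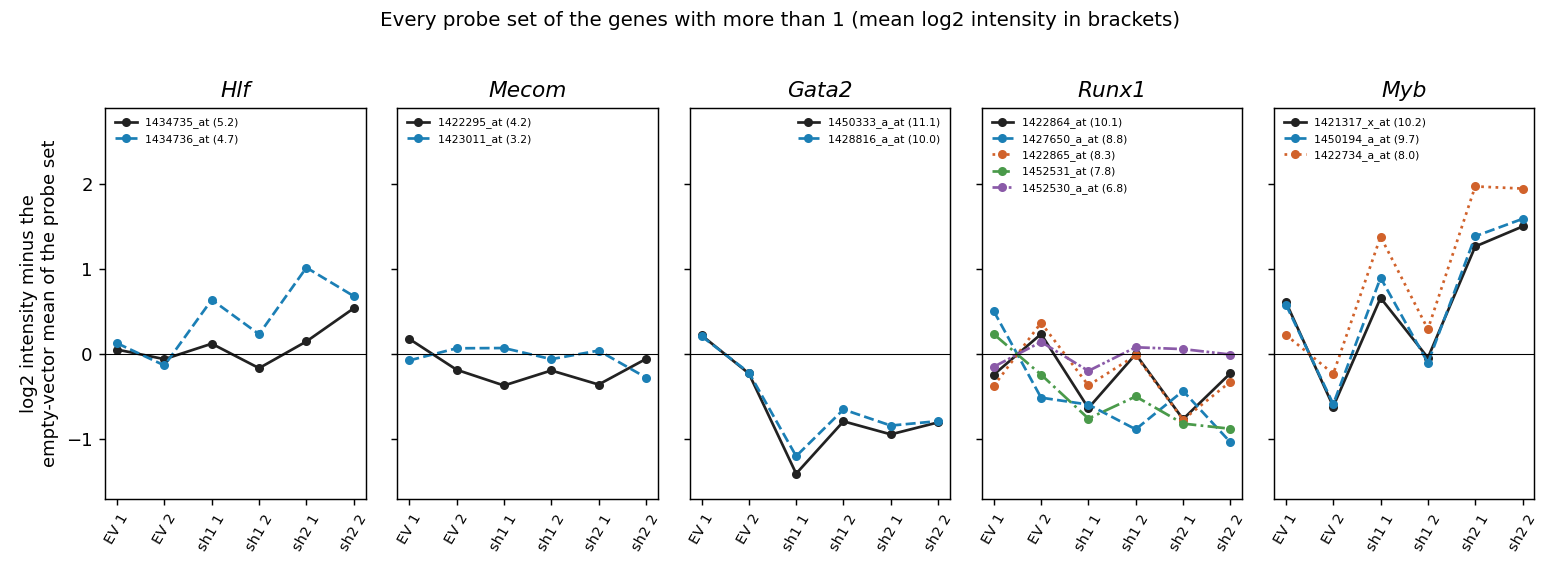
Log2 intensity of every probe set of the 5 factors with more than 1, each minus its own empty-vector mean, on the arrays of empty vector (EV), shRNA1 (sh1) and shRNA2 (sh2), where lines join the values of a probe set and imply no order. Both Gata2 probe sets lie lower on all shRNA arrays, and of the 3 Myb probe sets the dimmest alone lies higher on all of them, while the 5 Runx1 probe sets spread, with 1427650_a_at 1.02 units higher on empty-vector replicate 1 than on replicate 2.

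Meis1, the HOX cofactor that is itself upregulated in many leukaemias, differed in sign between the shRNAs. It measured 7.46 and 7.83 with empty vector, 6.70 and 7.33 with shRNA1 and 7.59 and 7.97 with shRNA2. Both shRNA1 arrays were below both controls and below both shRNA2 arrays, which overlapped the controls. The difference was -0.63 ± 0.28 for shRNA1 (limma adjusted p = 0.583) and 0.14 ± 0.28 for shRNA2 (adjusted p = 0.872). The test between the shRNAs gave -0.76 ± 0.28 (95% interval -1.44 to -0.086), unadjusted p = 0.0330 and adjusted p = 0.909 over all genes by limma. Without shRNA1 replicate 1 that difference was -0.45, and that of shRNA1 from empty vector was -0.32. The difference of both shRNAs together, -0.25 ± 0.24, was -0.43 without empty-vector replicate 1 and -0.066 without replicate 2. The sign for shRNA2 turned without empty-vector replicate 1 (-0.044) and without shRNA2 replicate 2 (-0.057).

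Pbx3, its TALE partner, was at 6.74 and 7.10 with empty vector, 7.15 and 7.13 with shRNA1 and 7.57 and 7.47 with shRNA2. All shRNA arrays were higher, those of shRNA1 by a few hundredths of a unit over the higher control and those of shRNA2 clearly so. The difference was 0.41 ± 0.15 for both (limma adjusted p = 0.261, 95% interval 0.036 to 0.79), 0.22 ± 0.18 for shRNA1 and 0.61 ± 0.18 for shRNA2 (adjusted p = 0.750 and 0.156). For both shRNAs it was 0.23 without empty-vector replicate 1 and 0.60 without replicate 2, where that for shRNA2 was 0.79.

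Myb had the widest range of the 10 factors, 2.12 units across the arrays. Its brightest probe set (1421317_x_at, whose suffix marks probes that may also match other transcripts) read 10.29 and 9.06 with empty vector, 10.34 and 9.64 with shRNA1 and 10.95 and 11.18 with shRNA2. The shRNA2 arrays exceeded every other array, while those of shRNA1 overlapped the controls, which were 1.23 units apart. With shRNA2 the difference was 1.39 ± 0.44, 2.61-fold (limma adjusted p = 0.181), against 0.31 ± 0.44 with shRNA1 (adjusted p = 0.868). The shRNAs differed by -1.07 ± 0.44, shRNA1 minus shRNA2 (95% interval -2.16 to 0.0059, adjusted p = 0.999).

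A second Myb probe set, 1450194_a_at, gave nearly the same differences, 0.40 with shRNA1 and 1.49 with shRNA2. The dimmest, 1422734_a_at, read 7.34 and 6.88 with empty vector, 8.49 and 7.41 with shRNA1 and 9.09 and 9.06 with shRNA2. On it all shRNA arrays exceeded both controls, with a difference of 1.40 ± 0.33 for both shRNAs (adjusted p over all probe sets 0.137 by limma).

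The size of the Myb difference depended on the control array. For shRNA2 it was 2.00 without empty-vector replicate 1 and 0.77 without replicate 2. For both shRNAs together it was 1.46 and 0.24 in that order. Each of these fits has 1 control array, so the sizes alone are given. With shRNA1 it changed sign, to -0.30 when empty-vector replicate 2 was left out and to -0.041 when shRNA1 replicate 1 was. Over the alternatives that kept all arrays the limma adjusted p for shRNA2 ran from 0.118 to 0.2365.

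Hlf, a PAR bZIP factor of the most primitive stem cells, was dim. It read 5.18 and 5.07 with empty vector, 5.25 and 4.97 with shRNA1 and 5.28 and 5.67 with shRNA2 on probe set 1434735_at, a difference of 0.16 ± 0.17 (limma adjusted p = 0.705). A dimmer one, 1434736_at, read 4.43 and 4.17 with empty vector, 4.94 and 4.54 with shRNA1 and 5.32 and 4.99 with shRNA2. There all shRNA arrays were higher, by 0.65 ± 0.19 (adjusted p over all probe sets 0.216), so the probe sets differ in size and in overlap.

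Mecom, the zinc finger factor also called Evi1, was dim too. Its probe set 1422295_at read 4.50 and 4.13 with empty vector, 3.95 and 4.12 with shRNA1 and 3.96 and 4.26 with shRNA2. The other, 1423011_at, stayed between 2.92 and 3.26 on all arrays. The differences were -0.24 ± 0.18 (limma adjusted p = 0.563) and -0.053 ± 0.15, and the first was -0.060 without empty-vector replicate 1 and -0.42 without replicate 2. The table holds no detection calls, so whether Mecom and Hlf were above background is not known, and RMA compresses differences of dim probe sets.

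Between the shRNAs, 1 of the 10 factors, Runx1, had a higher mean with shRNA1 than with shRNA2, where 44.9% of all genes did. The median difference was -0.31 over the factors and -0.021 over all genes. Both shRNA2 arrays exceeded both shRNA1 arrays in 5 factors (Meis1, Pbx3, Hlf, Myb and, by a hair, Erg), and in 23.9% of all genes. The opposite arrangement was seen in 0 of the 10 factors and in 17.7% of all genes. Rad21 itself differed by 0.078 ± 0.30 between them.

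**Figure D4:**
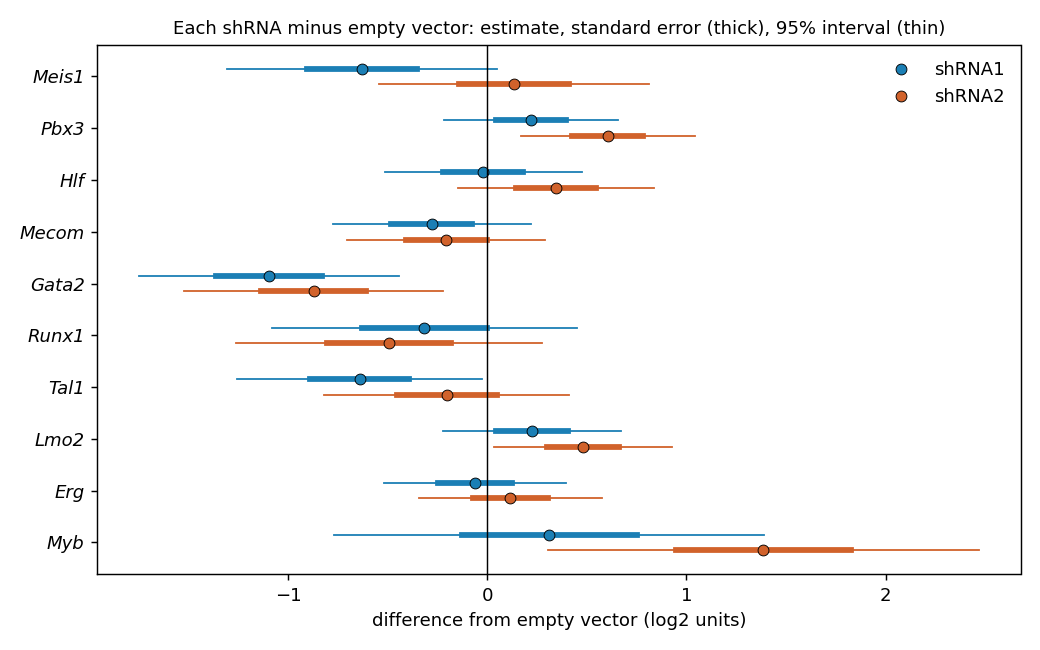
Difference from empty vector in log2 units for shRNA1 and shRNA2, with the limma estimate as a point, ± 1 standard error as a thick line and the 95% interval as a thin line. The intervals of Gata2 with either shRNA and of Tal1 with shRNA1 (-1.26 to -0.024) lie below 0, and for shRNA2 those of Pbx3 (0.17 to 1.04), Lmo2 (0.035 to 0.93) and Myb (0.31 to 2.47) lie above 0; these intervals are not adjusted for the number of genes.

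The lists of genes that work beside the 10 factors were chosen with earlier results of these data known. Their counts are thus descriptive, and the shares over all genes beside them carry no test. Of 10 measured HOX and TALE partners, 2 rose in the mean of both shRNAs, when 0.734% of all genes rose: Hoxa9, which binds DNA with MEIS1 and PBX3, by 3.29 ± 0.32 (limma adjusted p = 0.0138; second probe set 1.19), and Hoxa5 by 1.05 ± 0.13 (adjusted p = 0.0265). Hoxa9 read 5.74 and 6.91 with empty vector, 9.17 and 9.22 with shRNA1 and 9.97 and 10.09 with shRNA2. With shRNA1 alone 0 of the 10 passed by limma (2 at an unadjusted p under 0.05), beside 0.234% and 9.3% of all genes. With shRNA2 alone the same 2 did, beside 2.83% of all genes. Both calls were lost when whichever of the 4 shRNA arrays was dropped (adjusted p up to 0.0832 for Hoxa9 and 0.158 for Hoxa5), and that of Hoxa5 with array weights (0.127). The median difference of the list was 0.15, beside -0.023 over all genes.

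Among 15 measured partners of the TAL1, LMO2, GATA, ETS and RUNX proteins, 0 passed the limma test (2.13% of all genes) and 6 reached an unadjusted p under 0.05 (16.7% of all genes), and the median difference was 0.14. The 2 with the smallest p were Tcf4, an E protein that pairs with TAL1, at 1.01 ± 0.18 (limma adjusted p = 0.0564), and Zfpm1, the GATA cofactor FOG1, at -1.12 ± 0.34 (adjusted p = 0.190). The 6 Tcf4 probe sets differed by 0.073 to 1.29, and the second of Zfpm1 by -0.054. Among the alternatives that kept all arrays, Tcf4 passed only with each array centred on its median (1.04, limma adjusted p = 0.0493). It differed by 0.76 without empty-vector replicate 1 and by 1.26 without replicate 2. Zfpm1 differed by -0.52 without empty-vector replicate 1 and by -1.73 without replicate 2.

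Of 16 other stem and progenitor regulators, 0 passed the limma test and 6 reached an unadjusted p under 0.05, beside the same 2.13% and 16.7% of all genes, with a median difference of 0.0083. The smallest p-values were those of the zinc finger repressors Gfi1b, at -0.86 ± 0.18 (limma adjusted p = 0.0872), and Gfi1, at 1.91 ± 0.46 (adjusted p = 0.117). Gfi1b, of erythroid and megakaryocytic cells, and Gfi1, of granulocytic cells, thus had differences of opposite sign. Leaving out empty-vector replicate 1 gave -0.62 and 1.21, and leaving out replicate 2 gave -1.10 and 2.61.

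Among 15 measured target genes of the factors, 1 fell in the mean of both shRNAs (1.4% of all genes) and 11 had an unadjusted p under 0.05 (16.7% of all genes), with a median difference of -0.67 beside -0.023 over all genes. Those 11 differed in direction. They included all 4 targets with a positive difference, Gfi1 (1.91), Cd34 (0.84), Csf3r (0.75) and Csf1r (0.71), and the rest of them were lower. With shRNA1 alone 0 passed by limma (8 at an unadjusted p under 0.05), beside 0.234% and 9.3% of all genes. With shRNA2 alone 1 did (2.83% of all genes), Cd34, which rose. The one that fell was Kit, the stem cell factor receptor that GATA2, TAL1 and MYB act on and that mast cells also carry. It read 10.9955 and 11.10 with empty vector, 8.93 and 9.65 with shRNA1 and 9.37 and 9.82 with shRNA2, a difference of -1.61 ± 0.25 (limma adjusted p = 0.0412; second probe set -1.07). The call was lost under 5 alternatives that kept all arrays and on dropping whichever of the 4 shRNA arrays, over a range of adjusted p from 0.0209 to 0.226. This list includes mast cell and megakaryocyte genes, whose marker means were lower on all shRNA arrays as given above, and erythroid genes, whose marker mean overlapped between the groups. Of 6 relatives of Hlf, Mecom, Myb and Gata2 none passed and 1 had an unadjusted p under 0.05, beside 2.13% and 16.7% of all genes. Tef was at -0.50 ± 0.18 and Mybl2 at 0.79 ± 0.42 (limma adjusted p = 0.244 and 0.420). Mybl2 differed by 1.496 without empty-vector replicate 1, but by 0.085 without replicate 2.

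Over the 6 arrays, other genes with a range of at least 1 unit were ranked by likeness to the 3 widest-ranging factors, among 3064 genes. Closest to Myb were Cdca7, Sh3d19 and Gria3 (Pearson r = 0.996, 0.992 and 0.991). Gata2 was followed most closely by Lat, an adaptor of T cells, mast cells and platelets, Pkd1 and Itga2b, the platelet integrin CD41 (0.997, 0.996 and 0.994). Those nearest to Meis1 were Nmb, Mlec and Igfbp5 (0.971, 0.963 and 0.931). Only 6 arrays of shared processing underlie these values, and r exceeded 0.95 for 51 genes with Myb, 36 with Gata2 and 2 with Meis1, so they describe likeness in these arrays alone.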

How the data were processed

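The deposited table holds 1 intensity per probe set and array, which the authors obtained by RMA (per the submitters' processing notes); software, version and settings are not stated there. Deposited intensities lie between 4.96 and 20614.6 and are therefore linear, and log2 was taken without a pseudocount. Probe sets were named from the platform annotation; of 22690, those with several genes (691), those not listed (1606) and 13 control probe sets that name a gene were left out (64 controls in all, the rest of them in the other classes). A gene was represented by its brightest probe set.

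Differences were tested with limma 3.58.1 in R 4.3.3 (lmFit, eBayes, 1 fit of 3 groups, 3 residual degrees of freedom, two-sided, Benjamini-Hochberg over 12393 genes, or over 20380 probe sets where said), after tests on simulated data. Each related list names its genes past the threshold (up to 4), otherwise the 2 with the smallest p; all 10 factors are named. Members and lists were chosen with earlier results of these data known. Alternatives were probe set choice, filters on dim genes, normalization, a pseudocount of 16, eBayes settings, array weights, a replicate block and leaving out each array. Promoter sequences are RefSeq's on GRCm38.p6; Python 3.11.15 and matplotlib 3.10.9 made tables and plots.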

Additional observations from a re-analysis of the deposited data

How the results depend on the processing

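With all arrays kept, none of the 10 factors passed the threshold in any contrast under any alternative by limma. Leaving out 1 array at a time gave 0 to 2 factors for both shRNAs (Gata2 and Pbx3 without empty-vector replicate 2), 0 to 1 for shRNA1, 0 to 2 for shRNA2, 0 between the shRNAs and 0 to 5 of 19 probe sets. The fit without empty-vector replicate 2 also called the most genes of all, the upper end of the all-gene range below. Its 2 factors are therefore not set apart from genes in general. No share of all genes is at hand for the single-shRNA and probe set counts, so no conclusion is drawn from them. The count of factors beyond the controls, 4, was 5 to 7 with 1 control array, alternatives chosen after seeing the data. All-gene calls, 264, were 113 without the dimmer 50% of genes, 132 with a pseudocount of 16, 51 with array weights and 3 to 3121 with 1 array left out.

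The replicate number as a block changed no factor's call (Gata2 limma adjusted p = 0.122, 288 genes past the threshold). Among Rad21 and the genes named from the related lists it changed only that of Rad21 (0.0166). Named cell type markers outside those lists were not refitted. Deviations from the group means correlated between same-numbered arrays at 0.20, 0.15 and 0.58 over genes for the 3 pairs of groups; the labels do not say what the number marks.

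The sign turned for Hlf with shRNA1 (-0.019) when probe sets were averaged (0.21) or quantile-normalized (0.040), and for Mecom between the shRNAs (-0.073) when averaged (0.025). With 1 array left out it turned within -0.14 to 0.20 (Erg, both shRNAs), -0.16 to 0.13 (Hlf, shRNA1), -0.63 to 0.0026 (Runx1, shRNA1), -0.23 to 0.11 (Erg, shRNA1), -0.30 to 0.93 (Myb, shRNA1), -0.057 to 0.33 (Meis1, shRNA2) and -0.055 to 0.29 (Erg, shRNA2). Between the shRNAs the ranges were -0.22 to 0.077 (Mecom), -0.53 to 0.083 (Gata2) and -0.14 to 0.50 (Runx1). The cause was not tested. Mecom was filtered out with the dimmest 25% of genes, and Hlf, Mecom and Erg with the dimmer 50%. With 2 arrays a group, precision is limited by their number.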

Other observations

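The factors differed between replicate arrays of a group by a median of 0.36 units with empty vector, 0.45 with shRNA1 and 0.25 with shRNA2, where all genes had medians of 0.33, 0.17 and 0.15. In 8 of 10 factors the sign of replicate 1 minus replicate 2 was the same with both shRNAs, as it was in 70.7% of all genes. Meis1, Mecom, Gata2, Runx1 and Tal1 were lower on replicate 1 with both, by -0.63, -0.18, -0.62, -0.63 and -0.67 with shRNA1 and -0.39, -0.30, -0.14, -0.54 and -0.26 with shRNA2, while Pbx3, Lmo2 and Erg were higher. These values carry no test.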
